A study of Mus musculus with 2 samples.

Results

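The redox genes described here are 45 named genes that make, break down and use glutathione, run the thioredoxin and peroxiredoxin systems, convert homocysteine to cysteine, supply NADPH, answer to the transcription factor NRF2 or encode metallothioneins. They were listed by name, as members of these pathways, and the rule uses no measured value. The list was, however, chosen with earlier results of these data known, so it is not independent of them. Of the 45 genes, 44 were found among the 25749 genes of the deposited tables; Mt2 was not analysed here. Messenger RNA was measured by RNA-seq in the mouse embryonic stem cell line E14.1, in 1 library from cells with WT AHCY and 1 from cells with T136A AHCY, a substitution that puts alanine in the place of a threonine. No other treatment, time or allele is named in the labels, and how the T136A cells were made, and from how many clones, is not given in the sources used here. AHCY removes S-adenosylhomocysteine and releases homocysteine, which the transsulfuration enzymes Cbs and Cth can turn into cysteine. With 1 library per genotype there is no spread between replicates, so "higher" and "lower" compare these libraries and no p-value is given.

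Glutathione is a small peptide of glutamate, cysteine and glycine that cells keep mostly reduced and use, together with the thioredoxins, to remove peroxides and to repair oxidised protein cysteines. Both systems draw their electrons from NADPH, and cysteine is usually the limiting building block of glutathione. NRF2, encoded by Nfe2l2, is held down by Keap1 and, when released, binds antioxidant response elements in the promoters of many of these genes.

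The redox genes with the widest differences act in the breakdown of glutathione and the making of cysteine. Chac1 was 26.4-fold lower and Cth 5.03-fold lower in T136A, while the glutaredoxin Glrx was 2.70-fold higher. Levels are given in RPKM, reads per kilobase of exon scaled to the reads of the library, and a gene was counted as 2-fold apart on the log2 scale after 1 RPKM was added to each value. All 44 genes reached the minimum of 1 RPKM in at least 1 library. Of them, 1 (2.27%) was at least 2-fold higher in T136A, against 3.13% of all 12320 genes at this minimum, and 2 (4.55%) were at least 2-fold lower, against 3.10%. These shares lie near those of all genes. In bulk RNA, fewer cells that express a gene and less RNA per cell cannot be told apart. The median log2 ratio was -0.01 over the 44 redox genes and -0.03 over all genes, and 32 of the 44 (72.7%) lay within 1.5-fold on this scale, against 78.3% of all genes.

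**Figure D1:**
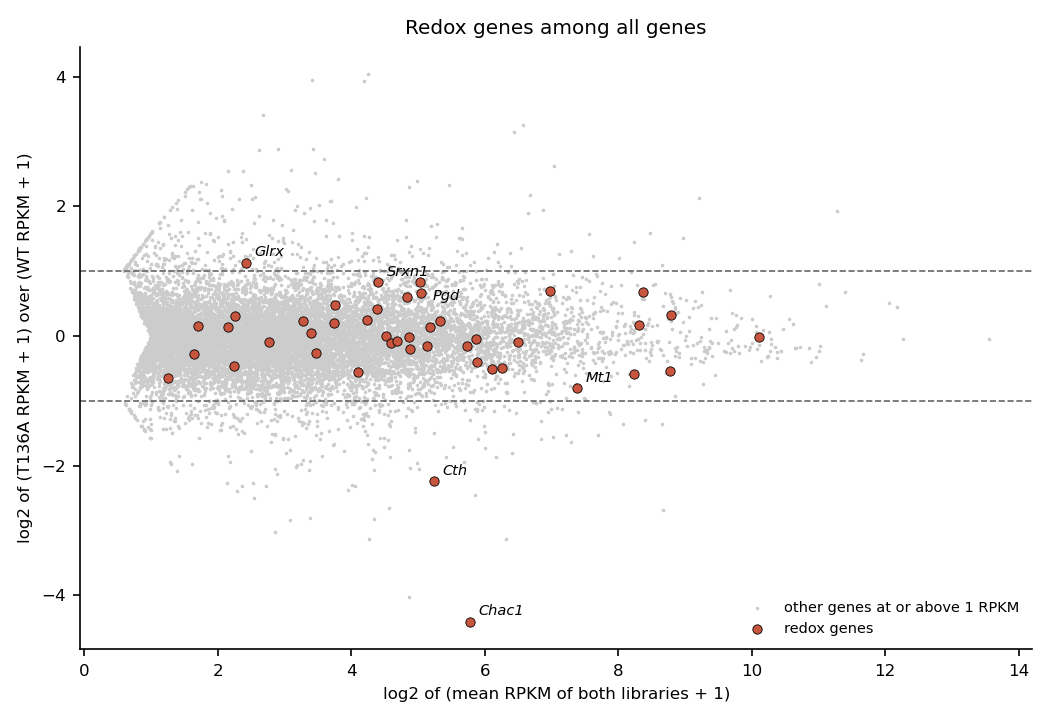
Each point is a gene that reached 1 RPKM in at least 1 library; the horizontal axis is log2 of the mean RPKM plus 1, the vertical axis log2 of T136A over WT after adding 1 RPKM, and dashed lines mark 2-fold. The 44 redox genes, in red, lie among the other genes except Chac1, the lowest of 12320 genes, and Cth, at rank 21 from the bottom.

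On plain RPKM ratios, 7 redox genes (15.9%) were higher in T136A by 1.5-fold or more, against 14.3% of all genes above 0 in both libraries, and 6 (13.6%) were at least 1.5-fold lower, against 16.3%. Whole read numbers could be recovered for 38 of the 44 genes, and the 95% counting interval of the fold, which covers counting error only, excluded 1 for 15 genes that were higher and 14 that were lower. The shares of these, 39.5% and 36.8% of the 38, stand beside 31.7% and 36.9% of all genes with whole reads. Counting error alone is thus small next to many of these folds, and what limits them is the lack of replicates.

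The labelled cell type carried its markers. All 10 embryonic stem cell markers examined, Pou5f1, Sox2 and Nanog among them, were present. They ran from 22.2 to 2182 RPKM in WT and from 19.5 to 1969 RPKM in T136A. Their summed levels were 4239 and 4178 RPKM, with Dppa5a the largest part of each. By log2 ratio 3 markers were higher and 7 lower. The higher ones were Utf1, at least 2-fold (94.2 and 284 RPKM), Tdgf1 (161 and 263 RPKM) and Zfp42 (252 and 397 RPKM). Nanog (673 and 517 RPKM) was the lowest by log2 ratio. Of 10 fibroblast feeder markers 7 were found, with sums of 121 and 86.7 RPKM, most of it Fn1, which was at least 2-fold lower (93.4 and 32.9 RPKM). The other 3 that reached 1 RPKM were higher in T136A: S100a6 (13.3 and 28.0 RPKM), Vim (10.9 and 19.9 RPKM) and Thy1 (2.13-fold, to 5.32 RPKM). Col1a1 and Col1a2 were below 1 RPKM in both libraries, and Postn was listed at 0 in WT and at 0.00625 RPKM in T136A. Summed levels were 4.40 and 7.93 RPKM for 7 primitive endoderm markers, and all 4 of these that reached 1 RPKM were higher in T136A. Of all 12320 genes at the minimum, 5841 had a log2 ratio above 0 and 6479 below. Among the 4, Gata4 (log2 ratio 0.34) lies on chromosome 14, whose median is given below. For 7 markers of early differentiation the sums were 10.4 and 4.60 RPKM, mostly Sox1 (7.77 and 1.55 RPKM); Mixl1 was also lower (1.17 and 0.592 RPKM), Nes was higher (1.18 and 1.91 RPKM), and Pax6 was listed at 0 in both. The part of these genes in the differences below was not tested. Ahcy itself stood at 52.9 RPKM in WT against 56.6 in T136A, which does not check the labels, since an amino acid change need not alter the transcript level. No redox gene lies on chromosome 14, whose genes had a median log2 ratio of 0.32; the medians of the 16 chromosomes that hold redox genes ran from -0.10 to 0.02.

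By level, superoxide dismutase Sod1 led the redox genes in both libraries, at 1110 RPKM in WT against 1094 in T136A. Only 7 genes were at or above 100 RPKM in both: Sod1, Gpx4, Prdx1, Gsta4, Gpx1, Txn1 and Mt1. Chac1 was an eighth in WT alone, where it ranked 8 of 44 by level, and ranked 39 in T136A. Cth moved from rank 14 to rank 32. At the low end, 6 genes stayed under 5 RPKM in both libraries, and Txnrd2, at 1.91 and 0.865 RPKM, had the lowest level.

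**Figure D2:**
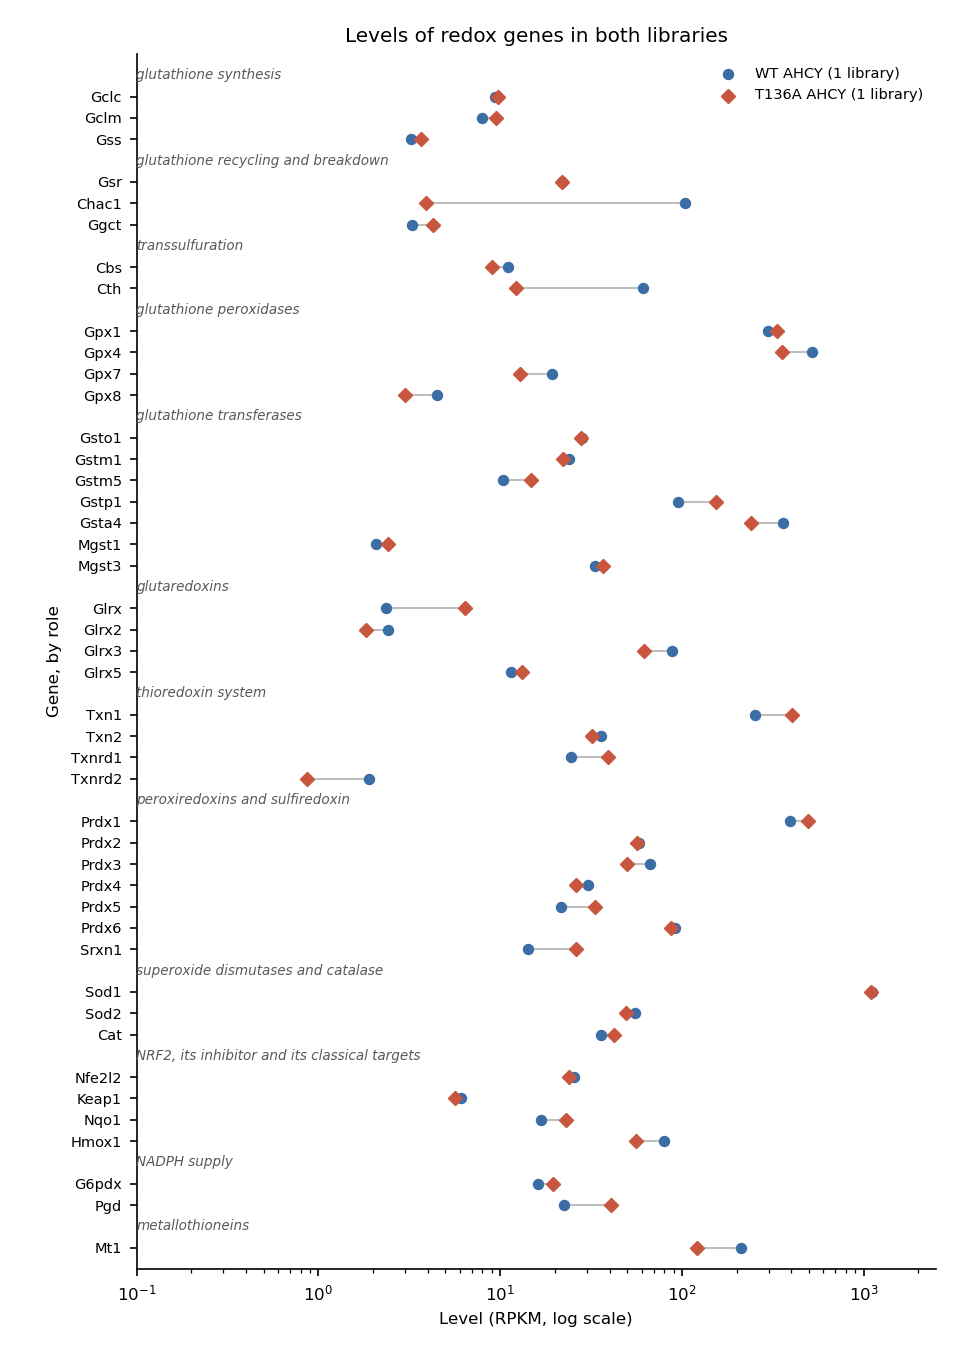
Level of each redox gene in RPKM on a log axis, grouped by role, with a circle for the WT library and a diamond for the T136A library. Chac1 and Cth show the widest gaps, and most other pairs of points nearly touch.

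The largest difference was that of Chac1, a gene of glutathione breakdown, and the other genes of this group did not share it. Chac1, which splits glutathione inside the cell, stood at 104 RPKM in WT (2968 reads) against 3.92 in T136A (118 reads). It was 26.4-fold lower, with a counting interval of 22.0 to 32.0. Ggct, a related enzyme that acts on gamma-glutamyl dipeptides, was at 3.26 and 4.27 RPKM, 1.31-fold higher (1.16 to 1.49). Gsr, which returns oxidised glutathione to its reduced form, was at 21.8 and 21.9 RPKM, and its interval included a fold of 1. Chac2, from the list of other glutathione enzymes, was at 9.17 and 7.73 RPKM, 1.19-fold lower (0.969 to 1.45).

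Chac1 (chr2:119351229-119354381, plus strand, GRCm38, GENCODE M21) is a known target of the stress factor ATF4, so its promoter was searched for the ATF4 element core, spelled TGATGNAAT or TTGCATCA, on both strands. The reverse complement of the latter spelling can overlap the former. A match was present in 1.67% of all 32851 RefSeq promoter windows of 300 bases and, among the 38 redox genes with a window, in Chac1 alone. For Cth, the other gene at least 2-fold lower, no match was found. It may be among the 6 genes without a window, so nothing is read from the missing match. The 250 bases before the RefSeq start of Chac1 (GRCm38.p6, chr2:119350992-119351241, plus strand) are shown with the match, which begins at position -193, in capitals.
Chac1: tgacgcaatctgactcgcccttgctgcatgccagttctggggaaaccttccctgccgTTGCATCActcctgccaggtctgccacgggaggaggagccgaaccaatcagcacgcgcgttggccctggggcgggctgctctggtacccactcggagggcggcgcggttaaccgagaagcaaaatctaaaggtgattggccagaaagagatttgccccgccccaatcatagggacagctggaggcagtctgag

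Among the transsulfuration transcripts, that of the final step was at least 2-fold lower in T136A. Cth, cystathionine gamma-lyase, which releases cysteine, was at 61.4 RPKM in WT (2999 reads) against 12.2 in T136A (626 reads), 5.03-fold lower (4.62 to 5.50). Cth lies at chr3:157894248-157925077 on the minus strand. Cbs, which starts the route by joining homocysteine and serine, was at 11.1 and 9.06 RPKM, a log2 ratio of -0.26. The enzymes of this route therefore differed in size, with Cth past the 2-fold line and Cbs not.

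Transcripts of the glutathione synthesis genes stayed close to their WT levels. Gclc, the catalytic subunit of the rate-limiting ligase, was at 9.43 and 9.74 RPKM, and its counting interval included a fold of 1. Gclm, the modifier subunit, was at 7.96 and 9.50 RPKM, 1.19-fold higher (1.09 to 1.30), and Gss, which adds glycine, was at 3.25 and 3.69 RPKM, with an interval from 0.977 to 1.31. All 3 genes had log2 ratios above 0, of 0.04, 0.23 and 0.14. Exons of Gclm and Gss overlap other genes, so some of their reads may belong elsewhere.

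Among the 4 glutathione peroxidases of the set, 3 were lower in T136A and 0 were 2-fold apart. Of all 12320 genes at the minimum, 6479 had a log2 ratio below 0. Gpx4, the selenoenzyme that reduces lipid peroxides in membranes, was at 518 and 357 RPKM, 1.45-fold lower (1.42 to 1.49). Gpx7 and Gpx8, which act in the endoplasmic reticulum, were at 19.3 and 12.9 RPKM and at 4.49 and 2.99 RPKM. Gpx1, the selenoenzyme of the cytosol, was at 298 and 335 RPKM, 1.12-fold higher (1.09 to 1.16). In both libraries Gpx4 and Gpx1 far exceeded the other peroxidases of the set. Gpx3, which is outside the set, was at 45.3 and 78.1 RPKM, 1.73-fold higher (1.62 to 1.84). The weak Gpx6, also outside the set and given below, was higher as well.

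The glutathione transferases, which attach glutathione to reactive compounds, went both ways and none of the 7 was 2-fold apart. Gsta4, which clears the lipid aldehyde hydroxynonenal, was at 362 and 240 RPKM, 1.51-fold lower (1.46 to 1.56). Gstp1 was at 95.2 and 154 RPKM, 1.62-fold higher, but no whole reads could be recovered for it and its near copies Gstp2 and Gstp3 may share its reads. Gstm5 was at 10.3 and 14.8 RPKM, 1.43-fold higher (1.21 to 1.70). The others lay within 1.2-fold: Gsto1 at 28.1 and 28.0 RPKM, Gstm1 at 24.0 and 22.3 RPKM, and the membrane enzymes Mgst1 at 2.07 and 2.43 RPKM and Mgst3 at 33.5 and 37.0 RPKM.

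Glrx, the glutaredoxin of the cytosol, which frees proteins of bound glutathione, was the only redox gene past the 2-fold line on the higher side. It stood at 2.37 RPKM in WT (228 reads) against 6.39 in T136A (646 reads), 2.70-fold higher (2.31 to 3.15), at rank 271 from the top of 12320 genes. Glrx3, an iron-sulfur protein partner, was at 88.2 and 62.2 RPKM, 1.42-fold lower (1.37 to 1.47). The mitochondrial Glrx2 was at 2.41 and 1.83 RPKM and the mitochondrial Glrx5, which passes on iron-sulfur clusters, at 11.4 and 13.3 RPKM. Glrx lies at chr13:75839868-75850154 on the plus strand. The 250 bases before its first RefSeq start (GRCm38.p6, chr13:75839635-75839884, plus strand) are printed because it is the promoter of that gene; none of the ATF4 or antioxidant cores searched was found in its window.
Glrx: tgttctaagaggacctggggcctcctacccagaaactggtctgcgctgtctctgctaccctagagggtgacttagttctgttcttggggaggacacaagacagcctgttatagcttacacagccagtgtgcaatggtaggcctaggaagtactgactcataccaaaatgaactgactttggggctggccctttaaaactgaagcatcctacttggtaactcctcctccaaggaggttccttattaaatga

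**Figure D3:**
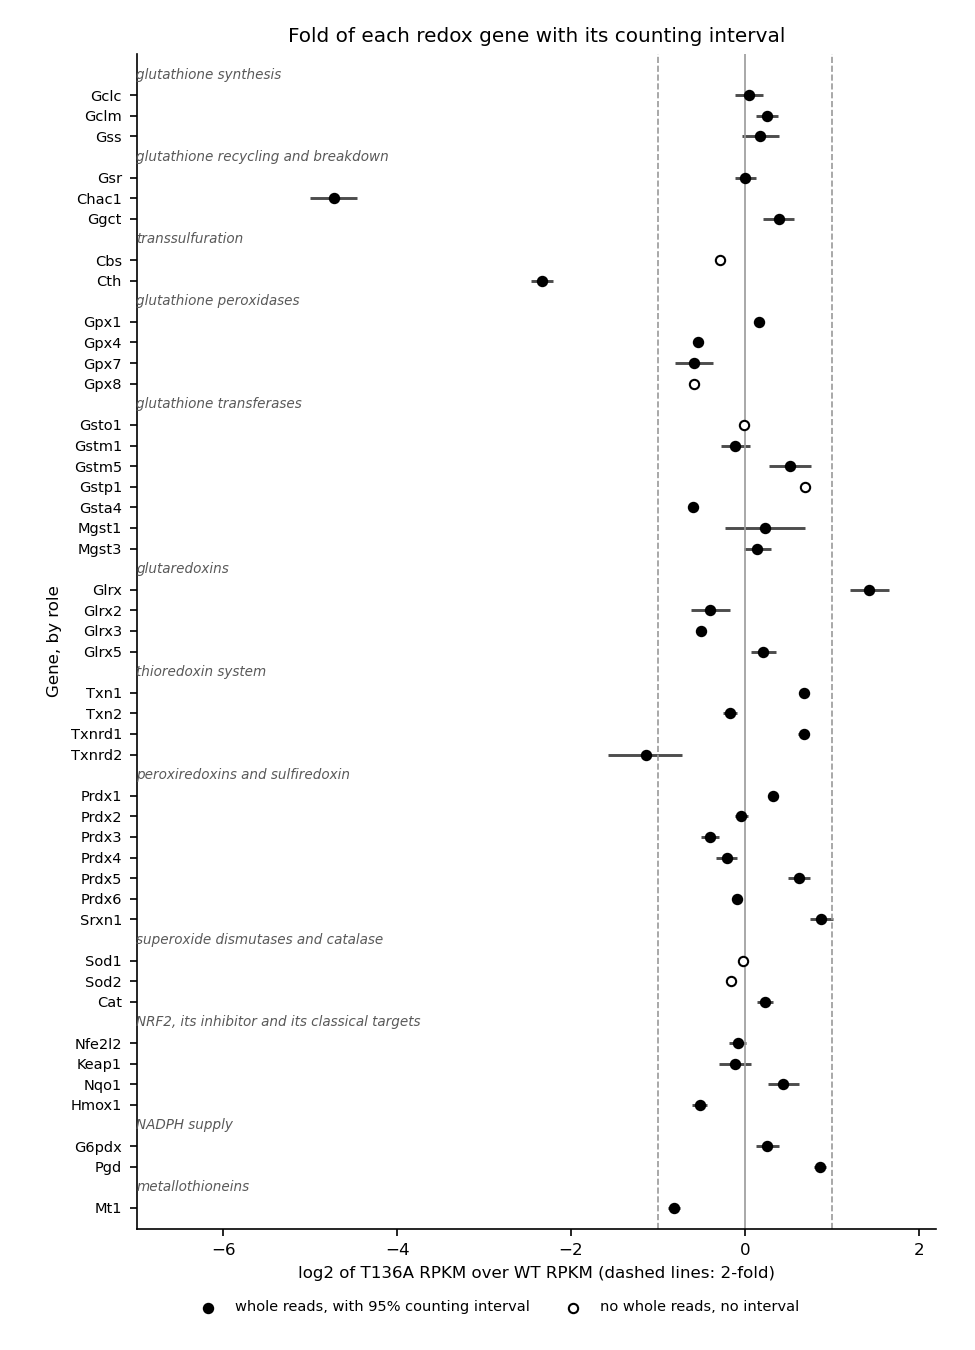
Log2 of the plain RPKM ratio of each redox gene, T136A over WT, by role; bars are 95% counting intervals, open circles are genes without whole reads and dashed lines mark 2-fold. Chac1 and Cth lie far left of the lower line, Glrx lies right of the upper one, and the interval of Txnrd2 spans the lower line.

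The thioredoxin system held genes on both sides. Txn1, the thioredoxin of the cytosol, was at 253 and 406 RPKM, 1.61-fold higher (1.55 to 1.66), and Txnrd1, the selenoenzyme that reduces it, was at 24.6 and 39.4 RPKM, 1.60-fold higher (1.53 to 1.67). Their mitochondrial counterparts were lower. Txn2 was at 36.0 and 32.1 RPKM, 1.12-fold lower (1.06 to 1.19). Txnrd2 was at 1.91 RPKM (147 reads) and 0.865 RPKM (70 reads), 2.21-fold lower in plain RPKM (1.65 to 2.98), although the added 1 RPKM brought its log2 ratio to -0.64.

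Peroxiredoxins reduce peroxides with electrons from thioredoxin, and sulfiredoxin revives them after overoxidation. Sulfiredoxin, Srxn1, was at 14.2 and 26.1 RPKM, 1.84-fold higher (1.68 to 2.02), just inside the 2-fold line with a log2 ratio of 0.84. Prdx1, the most abundant peroxiredoxin, was at 394 and 493 RPKM, 1.25-fold higher (1.23 to 1.27), and Prdx5 was at 21.7 and 33.3 RPKM, 1.54-fold higher (1.41 to 1.68), with exons that overlap Trmt112. The remaining peroxiredoxins were level or lower. Prdx3, of mitochondria, was at 66.4 and 50.2 RPKM, 1.32-fold lower (1.23 to 1.42), and Prdx4, of the endoplasmic reticulum, at 30.4 and 26.3 RPKM, 1.16-fold lower (1.06 to 1.26). Prdx2 was at 58.2 and 56.7 RPKM and Prdx6, which also reduces phospholipid peroxides, at 92.0 and 86.6 RPKM.

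Superoxide dismutases and catalase were near level. Sod1, of the cytosol, had a log2 ratio of -0.02, which turned above 0 under each of the 4 other scalings, as did that of Gsto1 (-0.01). Sod2, of mitochondria, was at 55.4 and 49.4 RPKM, and catalase, Cat, which splits hydrogen peroxide, at 36.0 and 42.4 RPKM, 1.18-fold higher (1.10 to 1.26).

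NRF2 and its inhibitor were close to their WT levels, while genes known as NRF2 targets went both ways. Nfe2l2 was at 25.4 and 24.0 RPKM and Keap1 at 6.07 and 5.62 RPKM, and the counting interval of each fold included 1. Nqo1, a quinone reductase and classical NRF2 target, was at 16.9 and 23.0 RPKM, 1.36-fold higher (1.21 to 1.54). Hmox1, heme oxygenase, another target that also answers to heme and other stresses, was at 80.2 and 55.8 RPKM, 1.44-fold lower (1.35 to 1.53). These targets thus differed in direction, with Srxn1, Txnrd1 and Nqo1 higher and Hmox1 lower.

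Transcripts of both NADPH supply enzymes listed were higher in T136A. Pgd, 6-phosphogluconate dehydrogenase, was at 22.4 and 40.9 RPKM, 1.82-fold higher (1.74 to 1.91), with a log2 ratio of 0.84. G6pdx, glucose-6-phosphate dehydrogenase, the entry to the pentose phosphate pathway, was at 16.2 and 19.4 RPKM, 1.20-fold higher (1.09 to 1.31), and shares exon bases with Ikbkg. The metallothionein Mt1, a cysteine-rich binder of zinc and copper, was at 212 RPKM in WT (4627 reads) against 121 in T136A (2771 reads), 1.75-fold lower (1.67 to 1.84). Its log2 ratio of -0.81 was the lowest after Chac1 and Cth with 1 RPKM added, whereas in plain RPKM Txnrd2 was lower.

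The antioxidant response element core, TGACNNNGC, was searched on both strands of the RefSeq promoter windows, which cover 250 bases before and 50 after each start. Its first letters are shared with AP-1 sites, which it can overlap. Of the 38 redox genes with a window, 11 (28.9%) held a match at 1 or more starts, against 12.4% of all 32851 windows. The first share counts genes and the second counts windows. The 38 genes have 50 windows, so a gene with several starts had several chances. Genes that answer to NRF2 were put on the list by name, so a raised share of this core is no independent support. The log2 ratios of the 11 had a median of 0.31, with 9 above 0, and those of the other 27 a median of -0.10. Of all 12320 genes at the minimum, 5841 had a log2 ratio above 0. These values describe the letters in the windows and the levels of their genes. The difference between the 11 and the 27 was not tested. Srxn1 and Pgd held their match after the start; for the other 9 the match and 10 bases on each side are shown on the strand of the match, with the core in capitals, because they include the regulator Nfe2l2 itself and several of its known targets. The Txnrd1 window belongs to the second of its 3 listed starts. Not every known target held a match: the window of Nqo1, called a classical NRF2 target above, held none.
Nfe2l2 (chr2:75704885-75704913, minus strand): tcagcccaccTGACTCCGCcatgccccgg
Gstm5 (chr3:107895802-107895830, plus strand): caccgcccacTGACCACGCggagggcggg
Gclm (chr3:122245413-122245441, minus strand): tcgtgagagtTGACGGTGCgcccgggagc
Prdx1 (chr4:116685456-116685484, minus strand): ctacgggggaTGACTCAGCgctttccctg
Ggct (chr6:54993023-54993051, plus strand): tcccgcccacTGACGTCGCttttctattg
Mgst1 (chr6:138140461-138140489, minus strand): ccccgcctccTGACCGTGCcaagccccgc
Txnrd1 (chr10:82859104-82859132, minus strand): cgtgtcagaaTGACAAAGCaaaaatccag
Sod1 (chr16:90220696-90220724, minus strand): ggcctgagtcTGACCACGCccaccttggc
G6pdx (chrX:74428919-74428947, plus strand): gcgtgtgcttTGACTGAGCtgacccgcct

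The metal response element core, TGCNCNC, was too common to separate genes, present in 51.0% of all windows and in 19 of the 38 redox genes. Mt1 held 3 matches, a number reached by 7.10% of windows. They began at positions -23, 3 and 21, so only the first lay before the start.

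Other genes of the same pathways were described from lists chosen with earlier results of these data known. The counts of every list below stand beside 3.13% of all 12320 genes at least 2-fold higher and 3.10% at least 2-fold lower. In lists this short, a count of 0 or 1 is near those shares. In the list of cystine and cysteine supply and use, 12 of 17 genes reached 1 RPKM, and 5 were at least 2-fold lower and 1 higher. The neutral amino acid carriers Slc1a4 (39.8 and 5.51 RPKM) and Slc1a5 (49.2 and 11.8 RPKM) and cysteine dioxygenase Cdo1, which oxidises cysteine (34.3 and 10.6 RPKM), were the lowest. The other 2 were Slc3a2, the heavy chain of the cystine carrier (172 and 56.4 RPKM), and the glycine carrier Slc6a9 (2.68 and 0.307 RPKM). Exons of Slc6a9 overlap B4galt2, Ccdc24 and Gm17114, so some of its reads may belong elsewhere. At the upper end stood the sulfur transferase Tst (13.2 and 33.0 RPKM), the cysteine desulfurase Nfs1 (6.88 and 10.9 RPKM) and Suox, sulfite oxidase (3.89 and 5.66 RPKM). Slc7a11, the light chain that imports cystine, was below the minimum in both libraries, at 0.279 RPKM (68 reads) and 0.0312 RPKM (8 reads), 8.93-fold lower (4.29 to 21.5).

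Cth and Chac1 also belong to the list of ATF4 and its targets. There, 11 of 12 genes reached the minimum, Slc7a11 being the exception, and all 11 were at least 2-fold lower, with a median log2 ratio of -1.90. Since the list holds Chac1 and Cth and was chosen with earlier results known, this count is a description and no independent support. Its lowest genes besides Chac1 were Nupr1 (log2 ratio -4.03) and Atf3 (-3.03), and those nearest to 0 were Psat1 (-1.03), Sesn2 (-1.05) and Phgdh (-1.12).

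Of 31 other NRF2 targets and regulators, 26 reached the minimum, with 3 at least 2-fold higher, 1 at least 2-fold lower and a median log2 ratio of 0.09. The aldo-keto reductase Akr1b8 was at 4.50 RPKM (118 reads) and 18.0 RPKM (497 reads), 4.01-fold higher (3.27 to 4.94). The carbonyl reductases Cbr3 (3.27 and 10.6 RPKM) and Cbr1 (26.9 and 57.3 RPKM) were the other 2 higher genes, without whole reads. All 3 have close relatives that could share their reads. The gene at least 2-fold lower was Nfe2l1, a relative of NRF2 that drives proteasome genes (96.1 and 42.5 RPKM); Akr1a1 (155 and 91.7 RPKM) and the NRF2 partner Mafg (22.3 and 15.4 RPKM) followed.

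**Figure D4:**
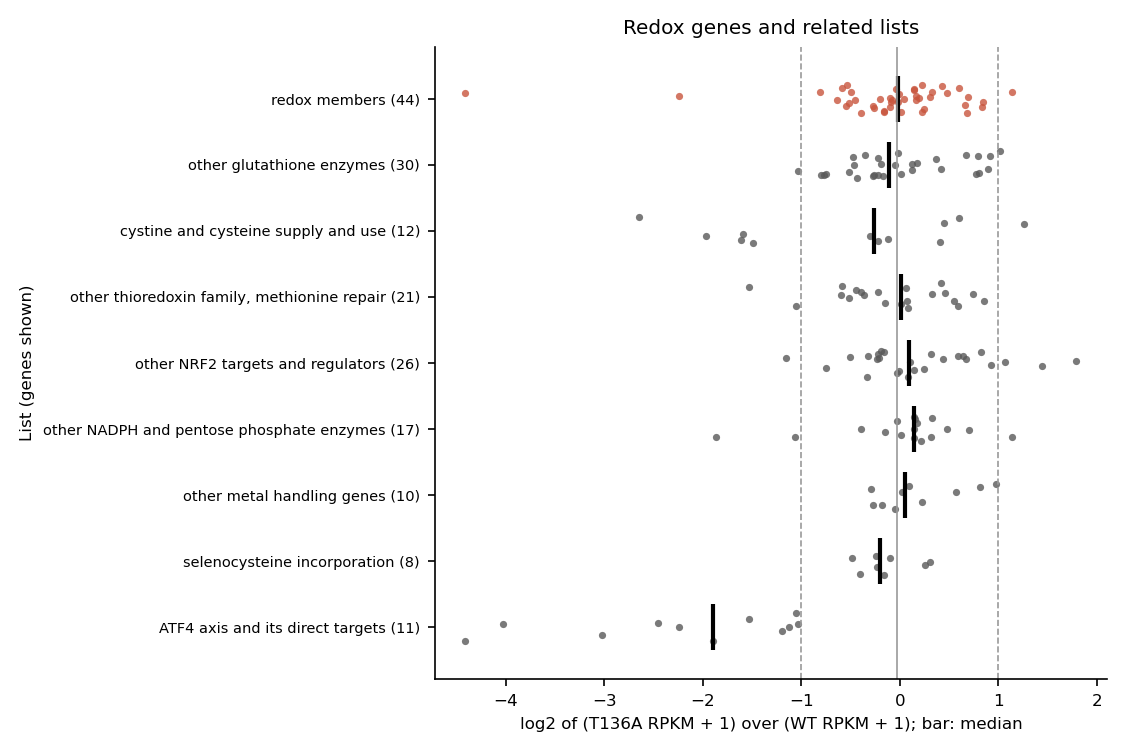
Log2 ratio, T136A over WT after adding 1 RPKM, of the redox genes (red) and of each list of related genes (grey), with the number of genes at the minimum in brackets, a black bar at each median, a grey line at the median of all genes and dashed lines at 2-fold. The ATF4 list lies wholly below the lower line, with a median of -1.90, while the other lists centre between -0.27 and 0.15.

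In the list of other thioredoxin relatives and methionine repair, 21 of 22 genes reached the minimum, with 0 higher and 2 lower. Txnip, which binds and inhibits thioredoxin, was at 220 and 75.8 RPKM, 2.91-fold lower (2.81 to 3.01), the opposite side to Txn1; an overlapping gene, Gm15441, could share its reads. Sesn2, a stress-induced sestrin, was at 80.4 and 38.2 RPKM, while its relative Sesn1 (3.64 and 7.40 RPKM), nucleoredoxin Nxn (15.7 and 27.0 RPKM) and Txnrd3 (2.38 and 4.08 RPKM) stood at the upper end. Txndc15 (11.8 and 7.47 RPKM) was the third lowest.

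Other sources of NADPH divided as well. Of 17 genes at the minimum, Idh1, the cytosolic isocitrate dehydrogenase, was at least 2-fold higher (44.9 and 100.1 RPKM, 2.23-fold), followed by the NAD kinase Nadk (51.8 and 84.8 RPKM) and by Rpia (0.970 and 1.73 RPKM). Those at least 2-fold lower were the mitochondrial folate enzymes Mthfd2 (112 and 30.0 RPKM) and Aldh1l2 (1.55 and 0.225 RPKM), followed by Mthfd1l (37.1 and 27.9 RPKM). An overlapping gene, D10Wsu102e, could share the reads of Aldh1l2. Among the 30 other glutathione enzymes at the minimum, 1 was higher and 1 lower. Gstp2 (18.0 and 37.3 RPKM) was the higher one, with Gpx6 (0.626 and 2.07 RPKM) and Gstp3 (4.19 and 8.66 RPKM) next. Gstt1, a transferase of the theta class (6.06 and 2.45 RPKM), was the lower one, with Gstt2 (6.32 and 3.20 RPKM) and Gstm2 (8.68 and 4.66 RPKM) next.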

How the data were processed

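The deposited tables hold 1 value per Ensembl gene and library; the authors' unit is not named and was read from the values as RPKM. Multiplied by GENCODE M21 exon length and 1 constant per library, 89.9% (WT) and 90.0% (T136A) of the deposited positive RPKM values came out whole within 0.01, which implies totals of 17506154 and 18396842 reads. CASAVA 1.8 and mm9 are named in the submitters' processing notes, with no role; the aligner, counting rule, treatment of reads that match several genes and use of strand are not given in the sources. M21 and the printed sequences are on GRCm38, so no coordinate was taken from mm9.

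Symbols matched 25696 identifiers; 9 that repeated a symbol were left out in favour of the higher total. The ratio was log2((T136A + 1)/(WT + 1)), which understates changes of weak genes. Counting intervals are exact conditional binomial (Clopper-Pearson) intervals of recovered reads; reads are not independent molecules. Steps were checked on simulated data. The 45 genes and all lists were chosen with earlier results of these data known. Named genes are all members, up to 3 at each end of a related list, Ahcy and cell markers. Gpx3, Chac2, Slc3a2, Slc6a9 and Slc7a11 were added after their values were seen. Other added constants (0.1, 5), minimums, scalings and identifier sums were tried, as were leaving out chromosome 14 or members with uncertain reads (Python 3.11.15, SciPy 1.17.1).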

Additional observations from a re-analysis of the deposited data

How the results depend on the processing

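Of the 38 values that 13 alternatives gave for the number of redox genes at least 2-fold higher, the number at least 2-fold lower and their median log2 ratio, 37 stayed within their limit (1.5 times for counts, the binomial interval for the median). The exception was the number at least 2-fold higher, which went from 1 to 0 with 5 RPKM added, because Glrx then lay inside the line. With 0.1 RPKM added, 3 genes instead of 2 were lower, Txnrd2 being the addition, and 5.87% and 5.90% of all genes were then higher and lower. The member median ran from -0.04 to 0.03. Under the 4 scalings no redox gene crossed the 2-fold line, and only Sod1 and Gsto1 changed sign. Leaving out chromosome 14, or members with overlapping exons or no whole reads (30 genes left), were chosen after seeing the data and kept Chac1, Cth and Glrx as the called genes. No paired analysis was possible because each genotype has 1 library. Depth limits Mgst1 (73 and 90 reads) and Txnrd2 (147 and 70 reads) most among the 38 genes with whole reads.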

Other observations

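The metal handling and selenocysteine lists each held 0 genes past the 2-fold line, among 10 of 15 and 8 of 8 genes at the minimum. Over all genes, 3.13% were at least 2-fold higher and 3.10% lower, so 0 in lists this short is near those shares. At the upper end of the first stood the zinc importer Slc39a10 (10.7 RPKM in WT against 21.9 in T136A, 2.05-fold in plain RPKM), the copper chaperone Atox1 (156 and 276 RPKM) and the transferrin receptor Tfrc (18.7 and 28.2 RPKM). Its lower end held the zinc exporter Slc30a1 (12.6 and 10.1 RPKM), which is induced by zinc together with Mt1, and the carriers Slc31a1 (14.3 and 11.7 RPKM) and Slc39a1 (36.6 and 32.1 RPKM). For selenocysteine, Sephs1 (22.9 and 16.1 RPKM), Scly (9.63 and 7.05 RPKM) and Secisbp2 (10.7 and 8.82 RPKM) were lowest, and Eefsec, the elongation factor that delivers selenocysteine (15.8 and 19.7 RPKM), and Pstk (3.70 and 4.59 RPKM) highest, ahead of Trnau1ap, which was slightly lower in T136A (29.4 and 27.3 RPKM).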
